A study of Mus musculus with 282 samples.

Results

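The hypothalami of 3 male BALB/cJ mice were compared with those of 3 male C57BL/6J mice, all on a high fat diet, within a panel of 282 mice. The 6 mice were chosen by their strain label alone, and each gave 1 RNA-seq library of the whole hypothalamus. The other mice of the series entered in 3 ways. All 281 mice with 1 strain given by their labels, from 99 strains, set the common estimate of the spread within strains, 23 further classical inbred strains gave the position of both strains, and 7 CXB recombinant inbred strains gave levels in descendants of a cross between these strain families. No gene was altered on purpose in any group, and the labels give no age.

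BALB/cJ and C57BL/6J are laboratory strains that differ at very many sites in the genome, and both are in wide use in work on behaviour and metabolism. BALB/cJ is albino and is known as a more anxious strain, and C57BL/6J is the strain from which the mouse reference genome was built. The hypothalamus governs feeding, body temperature, stress and reproductive hormones through small groups of neurons that release peptides. A strain difference in a bulk library can come from a variant at the gene, a variant elsewhere or the makeup of the dissected tissue. It can also come from aligning BALB/cJ reads to the C57BL/6J genome, or from mice handled in different batches. The C57BL/6J mice have consecutive mouse numbers and the BALB/cJ mice do not, so batch may go with strain. The part of alignment and of batch in the differences was not tested. Several genes below have a well known variant in one of these strains or in a close relative. Levels are given as FPKM, fragments scaled by transcript length and by library size, and differences as BALB/cJ minus C57BL/6J on log2(FPKM + 1), a scale that understates the change of genes with low values.

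The libraries were alike in scale, with gene FPKM summing to between 334848 and 349867 in the 6 mice. Pearson's r of log2(FPKM + 1) over genes was 0.982 to 0.986 between mice of one strain and 0.966 to 0.972 between strains, as a description across genes, which are not independent replicates. C57BL/6J mouse 3 stood apart in choroid plexus markers. Its Ttr, the transthyretin gene, was at 1376 FPKM, against 29.6 and 14.7 in the other C57BL/6J mice and 13.02 to 15.14 in BALB/cJ. The sum of the 5 choroid plexus markers was 1421.96 in this mouse, 38.2 and 26.1 in the other C57BL/6J mice and 20.0 to 21.7 in BALB/cJ. The count of called genes without this mouse is given beside the main one. Anterior pituitary markers were low in all 6 mice and summed to 3.20 to 13.3 FPKM.

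Of 14079 gene rows, 956 (6.79%) differed between the strains at an adjusted p under 0.05 in limma, with 402 (2.86%) higher and 554 (3.93%) lower in BALB/cJ. The median size of a called difference was 0.56 on the log2 scale. Without C57BL/6J mouse 3 the count was 717, with 315 higher and 402 lower, and 683 of these genes were among the 956. In 95.9% of the called genes the 3 mice of one strain lay wholly above the 3 of the other, while 24.5% of all genes had such groups. Differences of at least 2-fold in called genes with no overlap numbered 196 (1.39% of genes), of which 115 (0.817%) were higher and 81 (0.575%) lower in BALB/cJ. At a pseudocount of 0.1 this split was 166 higher and 161 lower. Nearest to the 2-fold limit were Clvs2 and 1 unnamed locus just under it and 2 unnamed loci just past it, at -0.9996, -0.9998, -1.0003 and -1.0030. The p-values measure the spread between mice of one strain, estimated over all 281 mice.

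**Figure D1:**
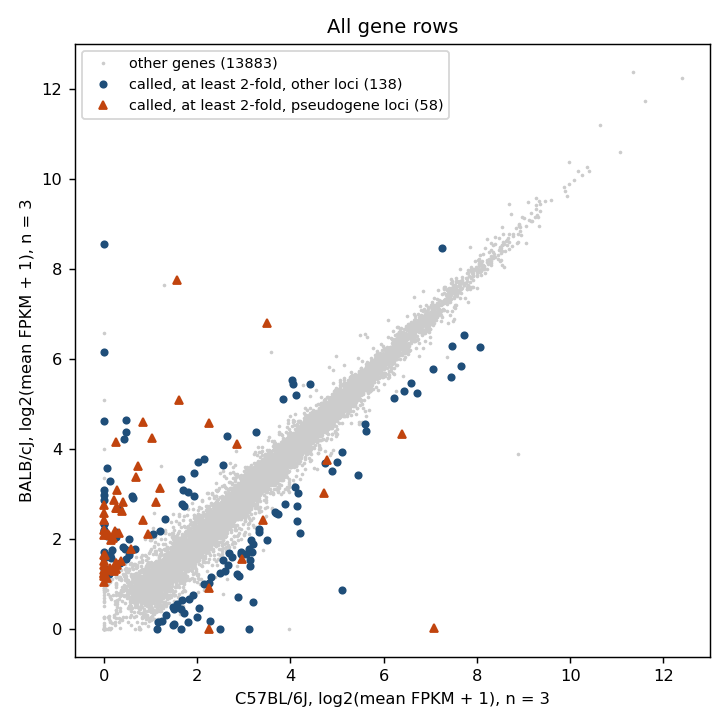
Mean FPKM of each of 14079 gene rows in C57BL/6J (horizontal, n = 3) and BALB/cJ (vertical, n = 3), as log2(mean FPKM + 1). Orange triangles are the 58 pseudogene loci and blue points the 138 other loci among the 196 called at 2-fold or more, and most triangles lie above the diagonal, near the vertical axis.

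Several protein-coding genes with no near-identical copy were lower in BALB/cJ. Pttg1 (XLOC_005694, chr11:43420250-43426251, mm10), which encodes securin, the protein that holds separase inactive until chromosomes part, was at 0.558, 1.49 and 0.412 FPKM in the BALB/cJ mice and at 35.3, 30.1 and 35.1 in the C57BL/6J mice. The groups were far apart, at 0.818 ± 0.582 against 33.5 ± 2.97 FPKM (SD, n = 3), a difference of -4.29 ± 0.31 (SE, adjusted p = 1.0e-27). Its 5 deposited transcripts summed to 0.717 FPKM in BALB/cJ and 30.7 in C57BL/6J. Fcrls (chr3:87250758-87263599), an Fc receptor-like gene known as a microglial marker, measured 0.484, 0.466 and 0.944 FPKM in BALB/cJ against 5.92, 7.03 and 5.99 in C57BL/6J. The difference was -2.17 ± 0.19 (adjusted p = 1.3e-20), and C57BL/6J was the highest of the 25 classical strains. Ly6a (chr15:74994815-74998218), which encodes the surface antigen Sca-1, was at 3.10, 3.92 and 3.14 FPKM in BALB/cJ and 17.2, 17.1 and 17.8 in C57BL/6J, a difference of -2.07 ± 0.23 (adjusted p = 1.4e-13).

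Other genes of the same kind showed smaller contrasts. Il33 (chr19:29925112-29961373), which encodes an alarmin cytokine stored in the nucleus, was at 10.97, 11.32 and 9.07 FPKM in BALB/cJ and 25.6, 32.2 and 28.3 in C57BL/6J, with no overlap and a difference of -1.37 ± 0.13 (adjusted p = 3.5e-19). The C57BL/6J mean of 28.7 FPKM was above all 23 other classical strains, which spanned 9.94 to 20.4. Hspb6, a small heat shock protein, had 2.58, 2.74 and 2.73 FPKM against 7.64, 8.84 and 7.99, and here too C57BL/6J was the highest of 25. Fggy, a carbohydrate kinase, differed by -1.76 (1.65 ± 1.10 against 7.71 ± 2.28 FPKM, n = 3, adjusted p = 4.8e-09), although the call was lost at a pseudocount of 0.01 (adjusted p = 0.0523). BC026585, named Cryzl2 in the later GENCODE M21 annotation, was at 1.28 ± 0.408 FPKM against 6.45 ± 0.483. Apoa2, an apolipoprotein of high density lipoprotein, was listed at 0, 0 and 0.326 FPKM in BALB/cJ and at 3.15, 1.68 and 2.67 in C57BL/6J. Hyi, hydroxypyruvate isomerase, was at 1.94 ± 0.168 against 6.76 ± 1.17 FPKM, and BALB/cJ was the lowest of the 25 strains.

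Other large differences of this direction were in pseudogenes and in loci of unknown function. Gm4076, a pseudogene on chromosome 13, was at 141, 131 and 130 FPKM in C57BL/6J and at no more than 0.0307 in BALB/cJ, and Gm10709, with 33 near-identical genes in M21, was listed at 0 in all 3 BALB/cJ mice and at 3.45, 5.06 and 2.80 in C57BL/6J. 1810049J17Rik was listed at 0 in each BALB/cJ mouse, the lowest of 25 strains, and at 7.51, 8.21 and 7.31 FPKM in C57BL/6J. Pisd-ps1, a pseudogene, was at 16.5, 21.3 and 20.0 FPKM against 103, 95.9 and 48.5. Erdr1 lies in the region that the X and Y chromosomes share, and was at 2.91, 3.03 and 6.99 FPKM in BALB/cJ and 18.9, 8.68 and 22.5 in C57BL/6J. Its call was lost in the 6 mice alone and at a pseudocount of 0.01 (adjusted p = 0.0613 to 0.0743). Gm1976 (-1.57) and 1190007I07Rik (-1.51) were also lowest in BALB/cJ among the 25 strains.

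Among protein-coding genes higher in BALB/cJ and free of near-identical copies, Prss41 (chr17:23841108-23844172), a serine protease, was at 6.32, 4.30 and 5.51 FPKM, against 0.176, 0.298 and 0.287 in C57BL/6J. The groups were wide apart (2.33 ± 0.23, adjusted p = 6.5e-17), and C57BL/6J was the lowest of 25 strains. Wdfy1 (chr1:79702262-79761769), an endosomal protein with WD repeats and a FYVE domain, was at 18.5, 20.0 and 17.2 FPKM in BALB/cJ and 4.77, 5.43 and 5.53 in C57BL/6J, a difference of 1.65 ± 0.09 (adjusted p = 9.8e-41). Here the other 23 classical strains were at 16.0 to 19.5 FPKM, so the low level was seen in C57BL/6J alone among the 25. Frmd4a (chr2:4017717-4614388), a scaffold protein of cell polarity, showed the opposite pattern, with 40.3, 47.0 and 48.0 FPKM in BALB/cJ and 13.8, 18.3 and 14.2 in C57BL/6J (1.495 ± 0.13, adjusted p = 5.8e-20) and 13.4 to 16.2 in the other 23 strains.

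The transcript rows located the Frmd4a difference. A transcript of 508 nt with 2 exons was at 27.4, 30.4 and 34.7 FPKM in the BALB/cJ mice and at 0.927, 3.31 and 0.554 in the C57BL/6J mice, while the 25-exon transcript of 6538 nt was at 4.73, 3.90 and 4.48 against 3.65, 2.35 and 3.83. The short form thus had means of 30.8 and 1.60 FPKM, beside 45.1 and 15.4 for the whole row, and the other 4 transcripts were at 3.59 FPKM or less in every mouse. Chchd2, a mitochondrial protein of the intermembrane space, was at 48.3, 54.4 and 68.2 FPKM in BALB/cJ and 198, 220 and 188 in C57BL/6J at the gene level (-1.82 ± 0.24, adjusted p = 1.1e-10). A 259-nt transcript of 2 exons accounted for most of it, at 0.388, 0 and 0 against 116, 151 and 107.7 FPKM. The 4-exon transcript of 915 nt was at 53.0 ± 9.004 and 75.8 ± 6.70 FPKM (n = 3). Chchd2 has 3 near-identical genes in M21. Transcript values are estimates that divide shared reads among overlapping models, and no test was run on them.

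Further genes higher in BALB/cJ were Tifa, an adaptor of TRAF signalling, at 6.63, 7.75 and 7.43 against 1.81, 2.92 and 2.72 FPKM (1.26 ± 0.16, adjusted p = 2.0e-11), and Magohb, a subunit of the exon junction complex, at 11.6 ± 0.837 against 4.87 ± 0.836 FPKM (1.10, adjusted p = 0.00014). Rtfdc1, related to replication termination factors and named Rtf2 in M21, was at 42.3, 42.8 and 43.2 FPKM against 19.0, 20.4 and 22.1. BALB/cJ was the highest of the 25 classical strains in all 3. The pseudogene Rpl21-ps6 was also highest there, but its difference of 1.18 was called at an adjusted p of only 0.027, and the call was lost in 6 alternatives. Gm15564 was at 12.3, 9.43 and 14.7 FPKM against 2.21, 1.21 and 5.70 (1.84, adjusted p = 0.0051), which was not called without C57BL/6J mouse 2 or with the 6 mice alone (0.0557 to 0.0866).

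A few genes outside the rule for named genes are given because their levels are high or their strain ranks extreme, and were chosen after their values were seen. Scg5, which encodes 7B2, the chaperone of the prohormone convertase PC2, was at 344, 377.2 and 342 FPKM in BALB/cJ and 147, 151 and 154 in C57BL/6J (1.22 ± 0.13, adjusted p = 4.0e-14). C57BL/6J was the lowest of 25, and the other 23 strains spanned 161 to 381 FPKM. Id2, an inhibitor of helix-loop-helix transcription factors, was at 47.0, 42.0 and 41.7 against 105, 83.1 and 95.3 FPKM (-1.09, adjusted p = 1.3e-11), and Pde1a, a calmodulin-dependent phosphodiesterase, was at 12.9, 4.53 and 6.27 against 15.9, 18.2 and 14.02. For both, BALB/cJ was the lowest and C57BL/6J the highest of the 25 strains. Hes5, a Notch target, was highest in C57BL/6J (5.86 ± 1.51 against 13.6 ± 3.80 FPKM, n = 3).

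**Figure D2:**
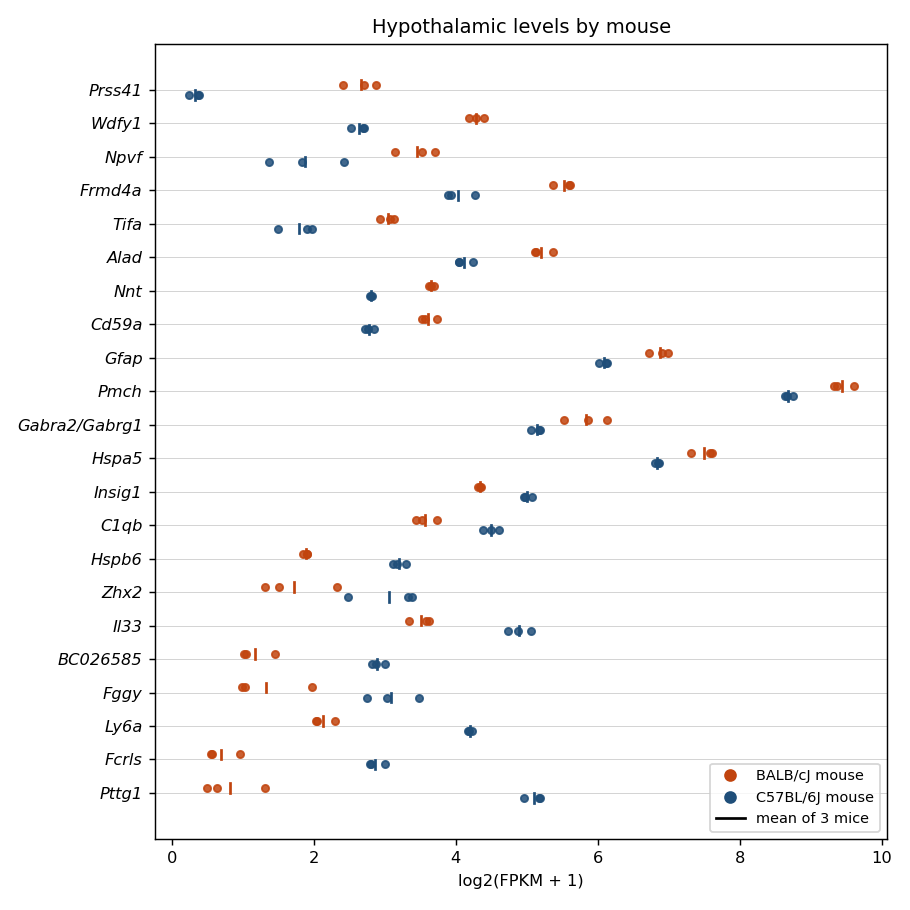
Levels of 22 genes in each of the 6 mice on log2(FPKM + 1), with BALB/cJ in orange, C57BL/6J in blue and a bar at each mean of 3 mice. Genes are ordered by their difference, from Prss41, higher in BALB/cJ at 2.33, to Pttg1, lower at -4.29, and in every gene shown the 2 strains do not overlap.

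A list of 23 genes known to vary among inbred strains had 16 in the table, of which 4 were higher and 2 lower in BALB/cJ, beside 6.79% of all genes called. The lower ones were Ly6a and Zhx2. Zhx2 (chr15:57694665-57839833), a transcriptional repressor in which BALB/cJ is known to carry a retroviral insertion in an intron, was at 1.84, 1.49 and 4.02 FPKM in BALB/cJ and 9.40, 4.601 and 9.01 in C57BL/6J. The groups did not overlap (-1.35 ± 0.31, adjusted p = 0.00091), and BALB/cJ was the lowest of 25 strains, the other 23 spanning 4.70 to 8.82 FPKM. With the 6 mice alone, the Zhx2 call was lost (adjusted p = 0.0873).

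Of the higher ones, Nnt (chr13:119335448-119408997), the mitochondrial transhydrogenase in which C57BL/6J is known to lack several exons, was at 11.4, 11.5 and 11.9 FPKM in BALB/cJ and 6.00, 5.95 and 6.05 in C57BL/6J, a difference of 0.85 ± 0.08 (adjusted p = 1.2e-17). It was lowest in C57BL/6J, the other 23 strains being at 8.13 to 12.2 FPKM. Its 15-exon transcript of 3122 nt was at 3.78, 3.95 and 3.06 FPKM against 0.00736, 0 and 2.15, and the 17-exon one of 3464 nt at 6.28, 6.42 and 8.20 against 5.53, 5.01 and 3.41. Gabra2, the alpha 2 subunit of the GABA-A receptor, for which a deletion in an intron is known in C57BL/6J, shares a row with Gabrg1. The row was at 57.4, 69.3 and 44.7 FPKM in BALB/cJ and 35.4, 35.0 and 32.5 in C57BL/6J (0.70 ± 0.13, adjusted p = 1.8e-05, and 0.0669 with the 6 mice alone). In the transcript rows, the 3 Gabra2 transcripts summed to 33.8 ± 6.08 FPKM in BALB/cJ and 12.2 ± 1.30 in C57BL/6J, and the 3 Gabrg1 transcripts to 21.9 ± 6.68 and 20.2 ± 0.991 (n = 3). The contrast therefore sat in Gabra2, whose groups did not overlap, with the lowest BALB/cJ mouse at 27.8 and the highest C57BL/6J mouse at 13.7 FPKM.

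Alad, an enzyme of heme synthesis known for differences in copy number among strains, was at 33.6, 34.0 and 40.3 FPKM in BALB/cJ and 15.6, 17.9 and 15.5 in C57BL/6J (1.09 ± 0.18, adjusted p = 2.4e-07). Wdfy1, given above, was the fourth of the higher ones. The other 10 members did not pass the test. H2-K1, a classical class I histocompatibility gene, was at 7.63, 6.86 and 9.16 against 16.2, 14.5 and 13.1 FPKM without overlap, but the spread over all strains left it at an adjusted p of 0.082, which was 0.0154 to 0.0168 in the 6 mice alone and in the 25 classical strains. The beta globin Hbb-bt had a difference of -0.90 (adjusted p = 0.18, and 0.0164 to 0.0372 in those same fits) and the neighbouring Hbb-bs one of -0.03 (0.98). H2-D1 (-0.21), Qdpr (-0.17), Glo1 (-0.10), Ide (0.13), Ly6c1 (0.14) and Prkdc (0.18) had adjusted p values of 0.17 to 0.79.

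Of 10 peptides of feeding circuits in the table, 1 was called, beside 6.79% of all genes. Pmch, the precursor of melanin-concentrating hormone, which promotes feeding, was at 640, 778 and 663 FPKM in BALB/cJ and 430, 404 and 397 in C57BL/6J. The 3 BALB/cJ mice lay above the C57BL/6J mice and BALB/cJ was the highest of 25 strains (0.75 ± 0.23, adjusted p = 0.024), but the call was lost when any of 4 single mice was left out (adjusted p = 0.0526 to 0.148). Pomc was at 17.8 ± 2.13 against 24.98 ± 5.66 FPKM (adjusted p = 0.93), Npy at 20.7 ± 3.08 against 17.4 ± 4.54 (0.72), Cartpt at 64.6 ± 7.13 against 61.1 ± 8.49 (0.92) and Hcrt, the orexin precursor, at 133 ± 17.6 against 176.1 ± 35.8 (0.52).

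Among 19 other hypothalamic peptides, Npvf was the sole call, beside 6.79% of all genes called. Its product includes the gonadotropin-inhibitory RFamide peptide. Npvf was at 7.83, 12.1 and 10.4 FPKM in BALB/cJ and 1.57, 2.56 and 4.37 in C57BL/6J, without overlap (1.58 ± 0.33, adjusted p = 0.00014). The other 23 classical strains ran from 1.93 to 13.4 FPKM, so that both strains lay inside their range. Avp, vasopressin, was at 192.2 ± 20.2 and 237 ± 49.3 FPKM (adjusted p = 0.78).

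Receptors and signalling genes gave 1 call in each of a few lists, beside 6.79% of all genes called. Of 22 leptin, insulin and melanocortin signalling genes, Npy2r, a presynaptic receptor for neuropeptide Y and peptide YY, was lower in BALB/cJ at 4.28, 4.84 and 5.43 against 8.64, 7.79 and 7.16 FPKM (-0.60, adjusted p = 0.0065). Among the 13 stress axis and serotonin receptor genes, Crhbp, which binds and buffers corticotropin-releasing hormone, was higher at 5.77, 6.81 and 7.10 against 4.498, 3.13 and 4.82 FPKM (0.57, adjusted p = 0.025, 0.0997 to 0.25 in the 4 alternatives that lost the call). Of the 6 steroid hormone receptor genes, the one call was Hsd11b1, which regenerates active glucocorticoid within cells, at 4.34 ± 0.755 against 7.71 ± 0.976 FPKM (-0.71, adjusted p = 0.011). Of 21 hypothalamic transcription factors, Irx3 was lower (1.98 ± 0.685 against 3.09 ± 0.206 FPKM, adjusted p = 0.043, lost in 6 alternatives), and 17 of the 21 had a difference below 0, with a list median of -0.18 beside -0.02 over all genes.

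Per1 was the only call among 16 circadian clock genes and among 12 glucocorticoid-responsive genes, and it lies in both lists. It was lower in BALB/cJ with overlapping mice (9.03, 12.9 and 9.56 against 11.7, 16.8 and 14.5 FPKM, adjusted p = 0.042, lost in 6 alternatives). Of 13 GABA-A receptor subunits the Gabra2 row alone was called. Of 8 genes of GABA and glutamate neurons, 1 was higher and 1 lower, beside 2.86% and 3.93% of all genes. The lower one was the vesicular glutamate transporter Slc17a8 (0.416 ± 0.191 against 1.12 ± 0.236 FPKM, -0.59, adjusted p = 0.0011). No call was made among 11 aminergic, 12 immediate early, 9 thyroid hormone handling and 4 sex chromosome genes or the 3 metallothioneins. Nor was any made among markers of the thalamus (5), striatum (6), cortex and hippocampus (3), blood (5), anterior pituitary (6) and choroid plexus (5). The pituitary marker Tshb was at 1.08, 3.83 and 2.70 FPKM in BALB/cJ against 0.0217, 0 and 0.343 without overlap. Its difference of 1.59 had an adjusted p of 0.38, and of 0.0367 with the 6 mice alone. Of the 6 pituitary markers, 3 had a difference above 0 and 3 below. The choroid plexus markers all had differences below 0, with the median at -1.02, and C57BL/6J mouse 3 held the highest value of each.

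Glial genes were called in both directions. In bulk tissue, fewer cells of a type and less RNA per cell cannot be told apart. Of 12 astrocyte genes 1 was higher and 3 lower in BALB/cJ, beside 2.86% and 3.93% of all genes. Gfap, the intermediate filament of astrocytes, was higher, at 118, 104 and 126 FPKM against 68.2, 63.97 and 68.7 (0.78 ± 0.21, adjusted p = 0.0056), and highest of the 25 strains. The angiotensin precursor Agt (-0.62, adjusted p = 0.00036), the transcription factor Sox9 (-0.57, adjusted p = 1.2e-06) and glutamine synthetase, Glul (-0.28, adjusted p = 0.034, lost in 7 alternatives), were lower. Sox9 was at 7.32, 7.07 and 8.60 against 12.1, 10.5 and 12.98 FPKM. The summed level of the 12 genes was 1467.4 to 1556.8 FPKM in BALB/cJ and 1620 to 1763 in C57BL/6J.

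Of 15 oligodendrocyte genes, Ugt8a, which makes the galactolipids of myelin, was higher (29.0 ± 1.76 against 20.5 ± 2.41 FPKM, 0.48, adjusted p = 0.025), and the lineage factors Olig1 (-0.50, adjusted p = 0.032) and Sox10 (-0.46, adjusted p = 0.031) were lower. Each of these 3 calls was lost in 5 alternatives, and over all genes 2.86% were called higher and 3.93% lower. Of 14 endothelial and pericyte genes, Rgs5, a pericyte marker, was higher (0.39, adjusted p = 0.010). Of 9 ependymal and tanycyte genes, Rarres2, the precursor of chemerin, was lower (-0.70, adjusted p = 0.017).

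Of 14 microglia genes, 3 were lower in BALB/cJ and 0 higher, beside 3.93% of all genes lower. A difference below 0 was seen in 12 of the 14, with a median of -0.17, and in 7628 of all 14079 genes, with a median of -0.02. C1qb, a chain of the complement component C1q, was at 9.87, 10.5 and 12.3 FPKM against 21.6, 19.8 and 23.4 (-0.93 ± 0.22, adjusted p = 0.0012). C1qc was at 16.2, 13.5 and 15.5 against 25.9, 22.4 and 22.7 (-0.62, adjusted p = 0.029, lost in 5 alternatives), and the integrin Itgam overlapped between strains (2.76 ± 0.589 and 4.47 ± 1.29 FPKM, adjusted p = 0.020). The summed level of the 14 rows was 205 to 242 FPKM in BALB/cJ and 264.3 to 286.4 in C57BL/6J. Aif1 entered this sum through a joint row with Lst1 and Prrc2a (-0.42, adjusted p = 0.14), so the sum is not of microglial genes alone. The same pair of C1q genes was called among 10 complement and acute phase genes. C1qa, the remaining C1q chain and a member of both lists, was not called (-0.08, adjusted p = 0.91). Of 12 interferon-stimulated genes, Xaf1 was lower (-0.75, adjusted p = 0.037).

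Of 17 genes of the major histocompatibility complex and antigen presentation, 3 were lower and 0 higher in BALB/cJ. Over all genes, 3.93% were lower and 2.86% higher. H2-T22, a nonclassical class I gene, was at 3.34, 4.29 and 4.22 FPKM against 8.31, 8.38 and 7.77 (-0.89, adjusted p = 0.00042). H2-T24 (-0.59, adjusted p = 0.041, lost in 8 alternatives) and the joint row of Daxx, Rgl2, Tapbp and Zbtb22 (-0.42, adjusted p = 0.016) were the others. BALB/cJ and C57BL/6J carry different haplotypes of this complex, and reads were aligned to the C57BL/6J sequence, whose part in these values was not tested. In the Ly6 family, 8 genes were in the table, 1 called higher and 2 lower, beside 2.86% and 3.93% of all genes. Besides Ly6a, Ly6e was lower (-0.40, adjusted p = 0.040) and Cd59a, an inhibitor of the membrane attack complex, higher at 10.8, 10.5 and 12.2 against 5.77, 5.58 and 6.17 FPKM (0.83 ± 0.15, adjusted p = 5.8e-06).

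Of 12 heat shock chaperones, 3 were higher and 0 lower in BALB/cJ, beside 2.86% of all genes higher. Hspa5, the chaperone BiP of the endoplasmic reticulum, was at 157, 194 and 190.9 FPKM in BALB/cJ and 116, 114 and 111 in C57BL/6J (0.66 ± 0.10, adjusted p = 1.0e-07). Hsph1 was at 114, 127 and 128 against 93.2, 94.9 and 81.6 FPKM (0.45, adjusted p = 0.00013), and BALB/cJ was the highest of 25 strains in both. Hspa1a, an inducible HSP70, was at 1.90 ± 0.627 against 0.764 ± 0.112 FPKM (0.70, adjusted p = 0.0017). The list median was 0.20, beside -0.02 for all genes. Hsph1 and Hspa1a were not called with the 6 mice alone (adjusted p = 0.0591 and 0.0832).

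Of 22 cholesterol and fatty acid synthesis genes, 2 were called, beside 6.79% of all genes. Insig1, which retains the SREBP activator in the endoplasmic reticulum, was lower at 18.9, 19.5 and 19.2 against 32.5, 29.999 and 30.4 FPKM (-0.66 ± 0.08, adjusted p = 3.5e-11), with C57BL/6J the highest of 25 strains. Sc5d, a late enzyme of cholesterol synthesis, was lower by less (-0.36, adjusted p = 0.034, lost in 5 alternatives). Of these 22 genes 18 had a difference below 0. Of 77 oxidative phosphorylation genes, Ndufc2 alone was called, and it was lower (-0.48, adjusted p = 0.038), but no call was left after leaving out any single mouse of the 6 (adjusted p = 0.0516 to 0.20). Of 77 cytosolic ribosomal protein genes, 7 were lower and 0 higher, beside 3.93% and 2.86% of all genes. The difference was above 0 in 46 of the 77 and below 0 in 31.

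Several of the smaller differences in these lists rested on single mice. Leaving out BALB/cJ mouse 1 or C57BL/6J mouse 1 ended the call of Npy2r (adjusted p = 0.0587 to 0.0647), and leaving out BALB/cJ mouse 1 or C57BL/6J mouse 3 that of Hsd11b1 (0.0927 to 0.117). Itgam, Xaf1 and the Daxx row each lost the call in 5 alternatives, the last at an adjusted p of up to 0.166 and the others of up to 0.259. Ly6e lost it in 6 (up to 0.162), Rarres2 in 4 (up to 0.131) and Rgs5 in 3 (up to 0.0729). Slc17a8 (0.0683) and Rps28 (0.0843) lost it with the 6 mice alone, and Rps18 (0.0607) without BALB/cJ mouse 2. In all of these the direction was kept.

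**Figure D3:**
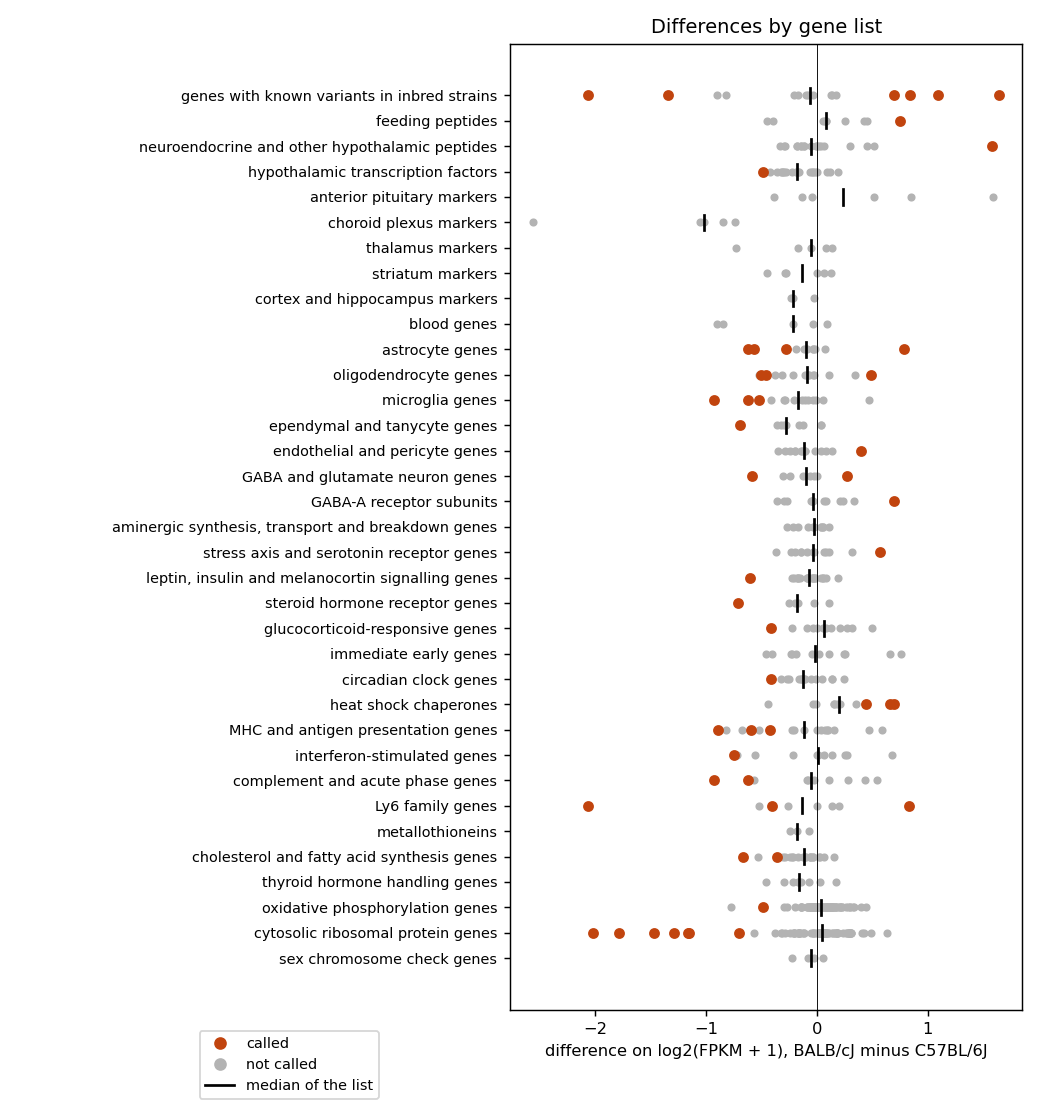
Differences between the strains on log2(FPKM + 1) for every member of 35 gene lists found in the table, 1 row a list. Orange points passed the test, grey points did not, and black bars mark list medians, most of which lie near 0 while called members lie on either side.

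The 7 ribosomal protein genes, Rpl29 (-2.02), Rpl26 (-1.79), Rplp0 (-1.47), Rpl35a (-1.29), Rpl30 (-1.16), Rps28 (-1.15) and Rps18 (-0.71), each have near-identical copies elsewhere in the genome, as do 72 of the 77. Rpl29 was at 10.8, 8.88 and 9.51 FPKM in BALB/cJ and 49.1, 41.0 and 38.1 in C57BL/6J. The median over the list was 0.05. Such copies, mostly processed pseudogenes left by reverse transcription of an mRNA, recur throughout the comparison. Of the 244 pseudogene loci, 69 were called, 60 higher and 9 lower in BALB/cJ (28.3% against 6.79% of all genes), and 50 were higher and 8 lower by 2-fold or more. The excess of higher loci lay mostly in the 167 unnamed ones, with 46 higher and 0 lower (40 and 0 by 2-fold). Unnamed loci carry no gene name in the assembly, which the authors built over all strains. Every row also exceeds 1 FPKM in at least 50 mice of the series. A locus at 0 in C57BL/6J could thus enter only through other strains, and the part of this rule in the split was not tested. Among the 77 named ones, 14 were higher and 9 lower (10 and 8 by 2-fold). Among 11564 named protein-coding loci, 247 were higher and 435 lower (5.9% called, near the 6.79% of all genes). By 2-fold or more, 24 (0.208%) were higher and 52 (0.45%) lower, beside 0.817% and 0.575% of all genes.

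A near-identical copy was counted where an M21 transcript of another gene aligned at 95% identity or more over at least 200 nt and 50% of the shorter transcript. Such a copy existed for 10.2% of the 12376 loci with an M21 gene, 20.1% of those called and 52.1% of those called at 2-fold or more. Of the 82 such loci higher by 2-fold, 52 had a copy (63.4%), and of the 64 lower by 2-fold, 24 (37.5%). In 24 pairs, one locus was called lower and its near-identical partner called higher in BALB/cJ, with at least one of them at 2-fold. In 18 of the 24 the partner that was higher was a pseudogene.

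A few of these pairs are shown with 120 bases of a coding exon of the gene and the matching bases of its copy, as examples of how alike the 2 can be. The stretches are from GENCODE M21 on GRCm38 (mm10), 5′ to 3′ on the strand of each transcript. They hold the most differences among the ungapped 120-base stretches compared, each inside a single coding exon. Other parts of a pair can differ more. Capitals mark the bases that differ.
Rps18, exon 3, chr17:33952472-33952591, minus strand: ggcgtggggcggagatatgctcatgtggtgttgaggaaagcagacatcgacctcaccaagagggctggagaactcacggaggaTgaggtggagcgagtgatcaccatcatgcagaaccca
Gm10260, chr13:97760367-97760486, minus strand: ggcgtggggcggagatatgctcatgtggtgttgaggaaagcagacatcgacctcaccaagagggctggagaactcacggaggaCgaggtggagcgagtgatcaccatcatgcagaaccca
Rpl26, exon 3, chr11:68903179-68903298, plus strand: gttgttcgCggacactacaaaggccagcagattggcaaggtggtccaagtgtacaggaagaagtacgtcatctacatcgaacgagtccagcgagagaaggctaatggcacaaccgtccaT
Gm15772, chr5:3236599-3236718, plus strand: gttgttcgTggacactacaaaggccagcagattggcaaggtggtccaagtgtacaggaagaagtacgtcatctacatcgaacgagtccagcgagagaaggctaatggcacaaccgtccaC
Atp6v0c, exon 2, chr17:24164763-24164882, minus strand: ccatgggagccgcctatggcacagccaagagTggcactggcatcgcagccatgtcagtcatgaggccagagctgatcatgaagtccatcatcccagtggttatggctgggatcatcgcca
Atp6v0c-ps2, chr6:37806165-37806284, plus strand: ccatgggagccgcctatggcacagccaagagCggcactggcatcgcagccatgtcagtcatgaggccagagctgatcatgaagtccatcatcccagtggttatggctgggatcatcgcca
Counted from 1 at the 5′ end of each stretch, the gene's base first, the differences are T84C for Rps18 and Gm10260, C9T and T120C for Rpl26 and Gm15772, and T32C for Atp6v0c and its pseudogene.

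Over whole coding sequences, 60.7% of all 50-base stretches of Rps18 occur letter for letter in Gm10260, 74.1% of those of Rpl26 in Gm15772 and 88.0% of those of Atp6v0c in Atp6v0c-ps2. Across the 24 pairs this share ran from 0 to 89.3%, with a median of 48.3%. It was 0 for Polr1d, whose match to its partner lies outside the coding sequence.

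Rps18, a protein of the small ribosomal subunit, was at 63.0, 60.9 and 73.2 FPKM in BALB/cJ and 108.5, 105.6 and 108.3 in C57BL/6J, a difference of -0.71 ± 0.19 (adjusted p = 0.0084). Its copy Gm10260 was at 69.2, 69.0 and 72.4 FPKM in BALB/cJ and listed at 0 in all 3 C57BL/6J mice (6.15 ± 0.36, adjusted p = 9.5e-37). The other 23 classical strains ran from 0.0823 to 77.6 FPKM at Gm10260, with a median of 63.9, so that most resembled BALB/cJ. For Rpl26, of the large subunit, the levels were 72.1, 80.6 and 75.4 against 298.2, 248.7 and 249.3 FPKM (-1.79, adjusted p = 6.1e-15). The unnamed locus XLOC_027629, which holds Gm15772, was at 195, 189 and 263 against 5.20, 0.712 and 0 FPKM (6.61 ± 0.41, adjusted p = 1.8e-34).

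Atp6v0c, the membrane-embedded c subunit of the vacuolar proton pump, was at 46.2, 44.8 and 51.1 FPKM in BALB/cJ and 182.4, 170.6 and 169.3 in C57BL/6J (-1.86 ± 0.16, adjusted p = 4.3e-21). XLOC_029050, with Atp6v0c-ps2, was at 93.7, 111 and 130 against 14.2, 8.85 and 7.78 (3.35, adjusted p = 3.2e-25). The splicing factor Rnps1 (-1.29) and its pseudogene Gm9825 (2.80), the ribosomal stalk gene Rplp0 and Gm8730 (2.76), and the glycolytic enzyme gene Eno1 (-1.21) and Gm5506 (4.62), which M21 names Eno1b, were further pairs of this kind. Gm5506 was at 23.6, 20.2 and 27.4 FPKM in BALB/cJ and listed at 0 in every C57BL/6J mouse, and Eno1 was at 86.8, 82.3 and 106 against 208.7, 216.5 and 209.6 FPKM.

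To set gene and copy on one scale, transcript FPKM were multiplied by transcript length in kb and summed over both loci, a measure chosen after the values were seen and roughly proportional to reads. Rps18 and Gm10260 together came to 70.8, 69.3 and 79.3 in BALB/cJ and 66.5, 65.5 and 68.0 in C57BL/6J, a ratio of 1.10, where Rps18 alone gave a ratio of 0.619. For Rpl26 with Gm15772 the sums were 133 ± 16.4 and 139 ± 13.1 (n = 3), a ratio of 0.958 against 0.305 for Rpl26 alone. The copy held 68.3% of the sum in BALB/cJ and 0.523% in C57BL/6J. Atp6v0c with its pseudogene gave 0.796, against 0.231 alone.

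In all 24 pairs the summed ratio was nearer to 1 on a log scale than that of the lower gene alone, as a sum of opposite changes tends to be, and the medians were 0.778 and 0.530. Not every sum came near 1. Rplp0 with Gm8730 gave 0.446, Eno1 with Gm5506 0.653, the peroxisomal thiolases Acaa1a with Acaa1b 0.408, and the pair of pseudogenes Gm9493 and Gm6472 3.34. Gm9493 (-1.37) was itself not called at the smaller pseudocounts (adjusted p = 0.105 to 0.492). The genome used for alignment is that of C57BL/6J, and the authors let a read map to more than 1 place. Whether reads of the gene were placed at the copy in one strain was not tested.

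**Figure D4:**
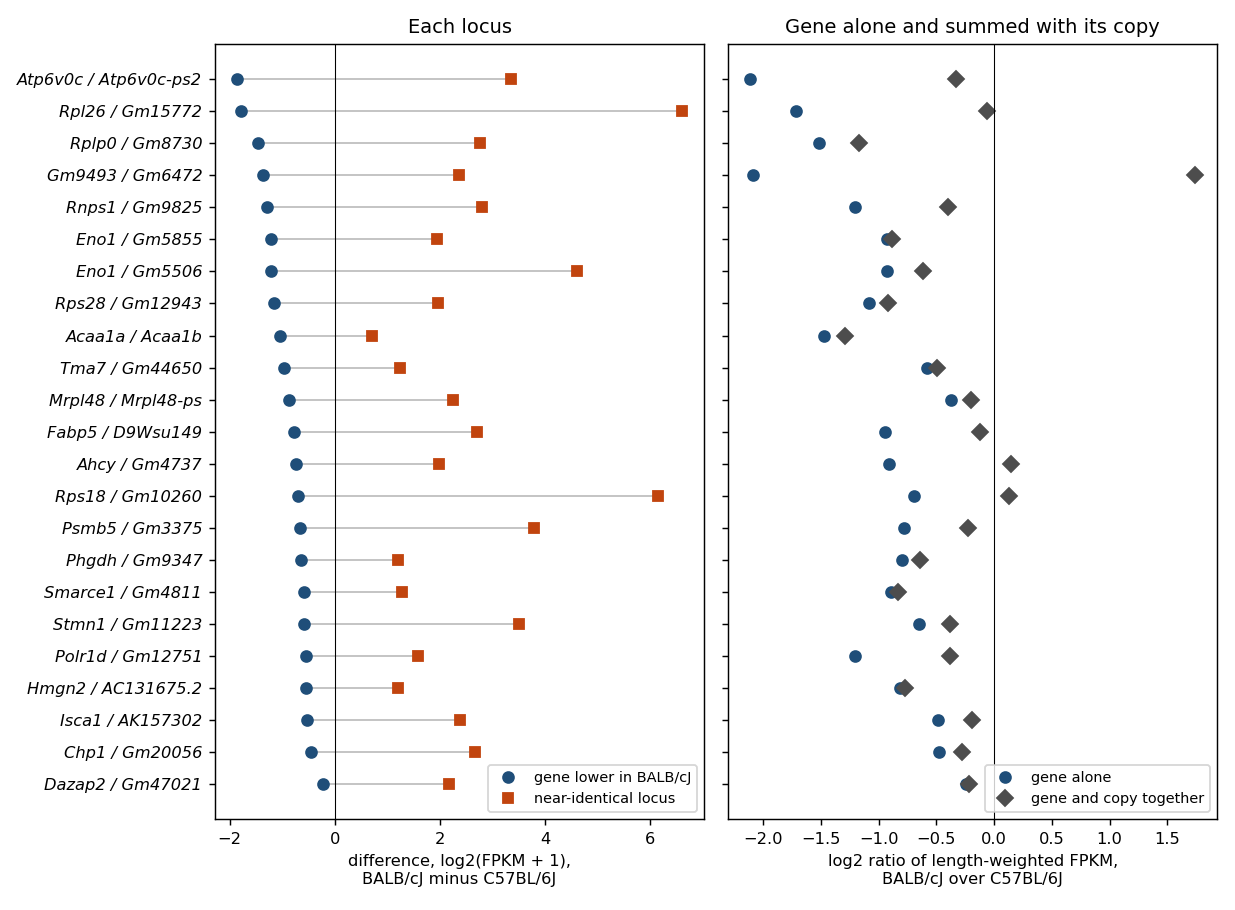
Left, the difference on log2(FPKM + 1) of each gene lower in BALB/cJ (blue circle) and of its near-identical locus (orange square) for 23 of the 24 pairs. Right, the log2 ratio of length-weighted FPKM, BALB/cJ over C57BL/6J, for the gene alone (blue circle) and for gene and copy together (grey diamond), which lies nearer to 0 than the gene alone in all 23 shown.

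Other loci with near-identical copies were higher in BALB/cJ without a called opposite partner. Gm7292 was at 28.8, 25.1 and 18.1 FPKM against 0.204, 0.831 and 0.118 (4.19 ± 0.19, adjusted p = 2.0e-49), Rps3a2 at 6.81, 6.13 and 5.34 against 0.728, 0 and 0.280, and Rps3a3 at 4.40, 2.28 and 3.38 against 0.122, 0.198 and 0.421. Gm5900 was at 5.601, 2.95 and 4.48 FPKM and near 0 in C57BL/6J, and Gm1840 at 7.83 ± 0.988 against 1.30 ± 0.348. Among pairs with a gene named above the 2-fold limit, Gm4737 (1.98) was matched with Ahcy (-0.73) and AK157302 (2.38) with Isca1 (-0.52).

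Set among the 25 classical strains, C57BL/6J was more often at the end of the range than BALB/cJ. Of the 196 genes called at 2-fold or more, C57BL/6J was the lowest or highest of 25 in 53 and BALB/cJ in 26. In 138 of the 196, C57BL/6J lay farther than BALB/cJ from the median of the other 23 strains. Over all 14079 genes C57BL/6J was at an end in 991 and BALB/cJ in 1165, and C57BL/6J was the farther one in 6916. Of the 70 loci called at 2-fold that had an M21 gene and no near-identical copy, C57BL/6J was at an end in 20 and BALB/cJ in 14, and of the 76 with a copy in 23 and 9. These 196 were chosen on the difference between the 2 strains, so that an end position is made more likely for both.

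The 7 CXB strains, inbred from crosses of BALB/cBy with C57BL/6By, relatives of the 2 strains, were set between the parental levels. Of 1372 strain means (196 genes in 7 strains), 513 lay within 25% of the parental difference from the BALB/cJ mean and 515 from the C57BL/6J mean, 74.9% together. The share differed among strains, and CXB-7/ByJ was near BALB/cJ in 46 and near C57BL/6J in 49 of the 196 genes. In 164 of the 196 genes at least 1 CXB strain was near each parent, and in 188 the strains lay on both sides of the midpoint. Alad was at 35.4 to 39.5 FPKM in 4 CXB strains and at 14.6 to 19.7 in the other 3, matching 36.0 and 16.3 in the parents. Apoa2 was at 1.97 to 2.62 FPKM in 3 strains and at 0.063 or less in 3, with CXB-7/ByJ at 0.554. Gm10260 was at 69.8 and 55.7 FPKM in CXB-12/HiAJ and CXBH and at 3.94 or less in the other 5.

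In 8 genes all 7 CXB strains lay on one side of the midpoint, 3 on that of BALB/cJ and 5 on that of C57BL/6J. Wdfy1, one of the 3, was at 16.2 to 17.2 FPKM, near BALB/cJ (18.5) and not C57BL/6J (5.24). Nnt, which is not among the 196, was likewise at 10.7 to 12.1 FPKM in all 7, near BALB/cJ (11.6) and not C57BL/6J (6.00). In contrast, Frmd4a (12.6 to 14.7 FPKM) and Rtfdc1 (19.6 to 22.3) were near C57BL/6J in all 7. Zhx2 was at 4.85 to 5.89 FPKM in the 7 strains, 3 of them near C57BL/6J and 0 near BALB/cJ. The Gabra2 row, also not among the 196, was near BALB/cJ in 6 strains and near C57BL/6J in 0. Pttg1 was near BALB/cJ in 6 strains, with CXB-7/ByJ at 13.8 FPKM. Il33 (14.05 to 24.58 FPKM) and Npvf (3.63 to 6.22) lay mostly between the parents.

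**Figure D5:**
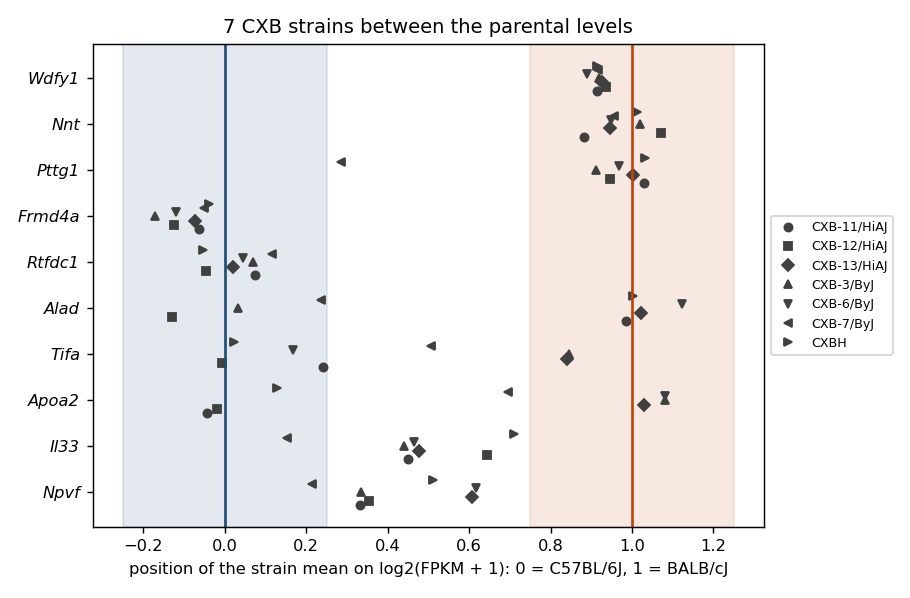
Position of the mean of each of 7 CXB strains (1 symbol a strain) between C57BL/6J (0, blue line) and BALB/cJ (1, orange line) on log2(FPKM + 1) for 10 genes, with bands within 25% of the parental difference. Wdfy1 and Nnt lie near BALB/cJ in all 7 strains, Frmd4a and Rtfdc1 near C57BL/6J in all 7, Alad splits 4 to 3, and Il33 and Npvf lie mostly between.

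Called genes were spread over the genome. Chromosome 17 held 17 of the loci called at 2-fold, 10.1% of those with a position, against 4.52% of all genes, and chromosome 4 held 16 (9.47% against 6.39%). Runs of at least 3 such loci, each within 1 Mb of the next, were found in 3 places. One lies at chr17:23726336-24426006 with Pkmyt1, Prss41, Atp6v0c and Rnps1, another at chr17:35303830-35346992 in the histocompatibility complex with H2-Q2 and 2 unnamed loci, and the last at chr13:67440433-68469121 with the zinc finger genes Zfp874a and Zfp493 and an unnamed locus. Among all called genes the longest run held 18 loci at chr17:32685668-36042747, 14 of them lower in BALB/cJ, among them Rps28, Rps18, H2-T22 and H2-T24, and 4 higher, among them Hspa1a. A run of 10 on chromosome 1 from 171225091 to 172374196 held 9 that were lower, including Apoa2, and 1 that was higher, Kcnj10.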

How the data were processed

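Hypothalami of mice of the HMDP, a panel of inbred and recombinant inbred strains, were profiled by RNA-seq with unstranded mRNA libraries, so reads of overlapping genes on opposite strands cannot be told apart. Per the submitters' processing notes, the authors used STAR 2.3.1 against mm10, Cufflinks 2.2.0 for the assembly of transcripts, and Cuffnorm 2.2.1 for the deposited FPKM. The values show that no row exceeds 0 FPKM in fewer than 100 mice, or 1 FPKM in fewer than 50. The FPKM carry no counts, so depth behind a value is unknown and precision is given by the spread between mice. No column of values was left out (0 of 282).

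log2(FPKM + 1) of all 14079 gene rows was fitted with limma 3.58.1 in R 4.3.3, 1 mean for each of 99 strains, in 281 mice. 1 mouse whose labels name different strains was left out. BALB/cJ minus C57BL/6J was tested with Benjamini-Hochberg adjustment over all genes and called at an adjusted p under 0.05. The fit was tested on simulated data with known differences, where small differences were missed more often than large ones. A gene that was not called may therefore still differ. Genes in the text are the 15 largest at 2-fold in each direction, every gene with known variants, called members of gene lists, and 5 in each direction in which either strain was at an end of the 25 classical strains. The genes and lists were chosen with earlier results of these data known. Near-identical transcripts were found with BLAST+ 2.17.0 in GENCODE M21. A deposited transcript existed for 12524 gene rows, of which 12376 were matched to an M21 gene by name or position. Alternatives were another pseudocount, a filter on low FPKM, quantile normalization, other sets of mice, a trended prior, read number and unique mapping as covariates, and leaving out each mouse. A few genes are not reported here.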

Additional observations from a re-analysis of the deposited data

How the results depend on the processing

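All 84 called genes among the 94 named kept their direction in every alternative in which they were tested, up to 15, and 57 of the 94 kept both direction and call there. Of all 956 called genes, 1 changed direction, Pak1, from -0.46 to 0.05 without BALB/cJ mouse 1. Among genes that were not called, Hbb-bs turned to 0.0186 without BALB/cJ mouse 2 (range -0.115 to 0.0186 when 1 mouse was left out) and Ly6c1 to -0.0458 without BALB/cJ mouse 3 (-0.0458 to 0.302). Counts of called genes are given here as a share of all 14079 rows. With the 6 mice alone, 3.502% were called instead of 6.79%, with 1.61% higher and 1.89% lower, and 425 of these genes were among the 956. The share was 9.84% in the 25 classical strains alone, 8.29% without 1 mouse of another strain whose FPKM sum stood apart, and 7.61% with the covariates. Pseudocounts of 0.1 and 0.01 raised the share at 2-fold from 1.39% to 2.32% and 2.24%, with 1.14% and 1.11% lower, and low values give larger differences there by construction. Quantile normalization moved the share of called genes that were higher from 42.1% to 47.7%. Leaving out 1 mouse gave 4.42% to 6.45% called, with 1.97% to 2.68% higher and 2.44% to 3.76% lower. The lowest share, 4.42% with 2.44% lower, came without BALB/cJ mouse 2, and without C57BL/6J mouse 1 2.61% were lower. For the CXB strains, 47.0% of means lay within 10% of the parental difference from a parent, and 91.0% within 40%. In 17 genes that differed by 2-fold or more without overlap no call was made, and 10 of them were called in the 6 mice alone, such as the small RNA gene Gm26331 (35.6, 125 and 44.1 FPKM against 0 in each C57BL/6J mouse, adjusted p = 0.0974 and 0.000618). No paired analysis was possible because the numbers in the labels name single mice and no number is shared between the strains. FPKM limit what can be said of low genes.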
